A study of Daphnia magna with 48 samples.

Results

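The probes described here are those whose level was lower with isobutanol and stayed near its control with every other chemical of the series. A probe was kept when the mean of the 3 isobutanol-exposed arrays lay at least 0.6 below the mean of the 3 isobutanol controls on the log2 scale (a difference of -0.6 or less), and when the same difference was under 0.4 in size for each of the other 7 chemicals. Of 6006 Daphnia probes, 224 met the first limit, 3974 met the second and 33 met both. Because these differences chose the 33 probes, the differences are given as a description and carry no test.

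Daphnia magna is a small freshwater crustacean of the plankton that is widely used to test the toxicity of chemicals. Isobutanol is a short branched alcohol and served as a non-polar narcotic, a chemical whose baseline toxicity is attributed to its uptake into membranes. A microarray probe is a short immobilised DNA strand that captures the labelled copy of a transcript, and on a 2-colour array each probe reports a ratio between a sample and a reference. A common reference cancels out when arrays are compared, so a difference between exposed and control animals can come from a low exposed level, a high control level or both. For probes selected on a difference, the other control groups show where each of these levels stands beside unexposed animals of other experiments. With a single experiment per chemical, a shift of the whole experiment cannot be told apart from a high control or a low exposed level.

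Newborn animals were exposed for 96 h to isobutanol (IB), 3-chloropropanol (CP), aniline (A), 4-chloroaniline (CA), 3,5-dichloroaniline (DA), 2,3,4-trichloroaniline (TCA), 3,4-dichlorophenol (DF) or cadmium (Cd). The dose was the EC10, at which 10% of animals lose their mobility, and each chemical had an unexposed control group of its own. The 16 groups held 3 arrays each, and each array came from the whole bodies of 30 pooled animals at day 4, so that a lower level cannot be told apart from fewer cells that express the transcript. Media were renewed every 48 h for the anilines. All groups were set against a universal reference mixed from control and exposed samples. The labels call the 3 arrays of a group biological replicates and do not say how far their cultures were separate, so p-values measure the spread between these samples.

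The table held 48 arrays with 0 missing values, and array medians lay between -0.02 and 0.01. The SD over probes was 0.53 to 0.68 on the 6 isobutanol arrays and 0.23 to 0.51 on the other 42, so the isobutanol arrays had the widest ratios of the series. Replicate arrays of the isobutanol groups correlated at r = 0.81 to 0.95 over probes. The 3-chloropropanol controls 1 and 3 correlated at 0.94, and the SD of their difference was 0.132, where 15 other same-dye pairs gave 0.218 to 0.52. Results that use these arrays are therefore also given with both counted as 1 sample. The sign of the ratios is likely sample over reference. Among 510 probes with an SD over arrays of at least 0.6, the median log2 of the mean ratio to the pooled reference was 0.00 in the deposited sign and 0.47 in the opposite one. The 33 probes themselves did not favour this reading, with medians of 0.05 and 0.04 and 16 of 33 closer to a ratio of 1 as deposited. The 21 of them with an SD over arrays of at least 0.3 leaned to the opposite sign. Their medians were 0.10 and -0.01, and 8 of 21 were closer as deposited. Every probe described below with both isobutanol groups high was closer with the sign turned, such as DM08869P2 at 0.54 and -0.13. With the sign turned, every level that reads as high here would read as low.

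The 33 probes have no gene names here. None of their names or numbers matched the 28335 genes of the reference table, each carries a sequence number of its own, and no probe sequence was at hand. They are therefore described by their levels over the 16 groups. Levels are log2 ratios to the reference, given as mean ± SD over 3 arrays, and differences are exposed minus control on the same scale.

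In most of these probes the isobutanol controls were high. The isobutanol control mean lay above all 7 other control means in 26 of the 33 probes, against 26.9% of all probes. The isobutanol-exposed mean lay below all 7 other control means in 15 of 33, against 22.6% of all probes. The control stood farther than the exposed group from the middle one of the other 7 controls in 25 probes, and the exposed group stood farther in 8. The median distance from that middle control was 0.56 for the isobutanol control and -0.19 for the exposed group. Both isobutanol groups entered the choice of the probes, so these counts describe the set and test nothing.

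The probes fell into 5 kinds of position. In 10 probes the control was above the range of the other controls while the exposed group was inside it, a position held by 11.1% of all probes. In 9 probes the control was above and the exposed group below that range, against 1.1% of all probes. In 7 probes both isobutanol groups were above the range, against 14.7% of all probes, and in 6 the exposed group was below it with the control inside, against 6.71%. In the last probe, DM01919P3, both groups were inside, as in 33.5% of all probes, and in 0 probes the control was below the range, against 26% of all probes. Of the 191 probes that met the isobutanol limit but were left out because of another chemical, 84 had the control above all other controls and 128 had the exposed group below them.

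**Figure D1:**
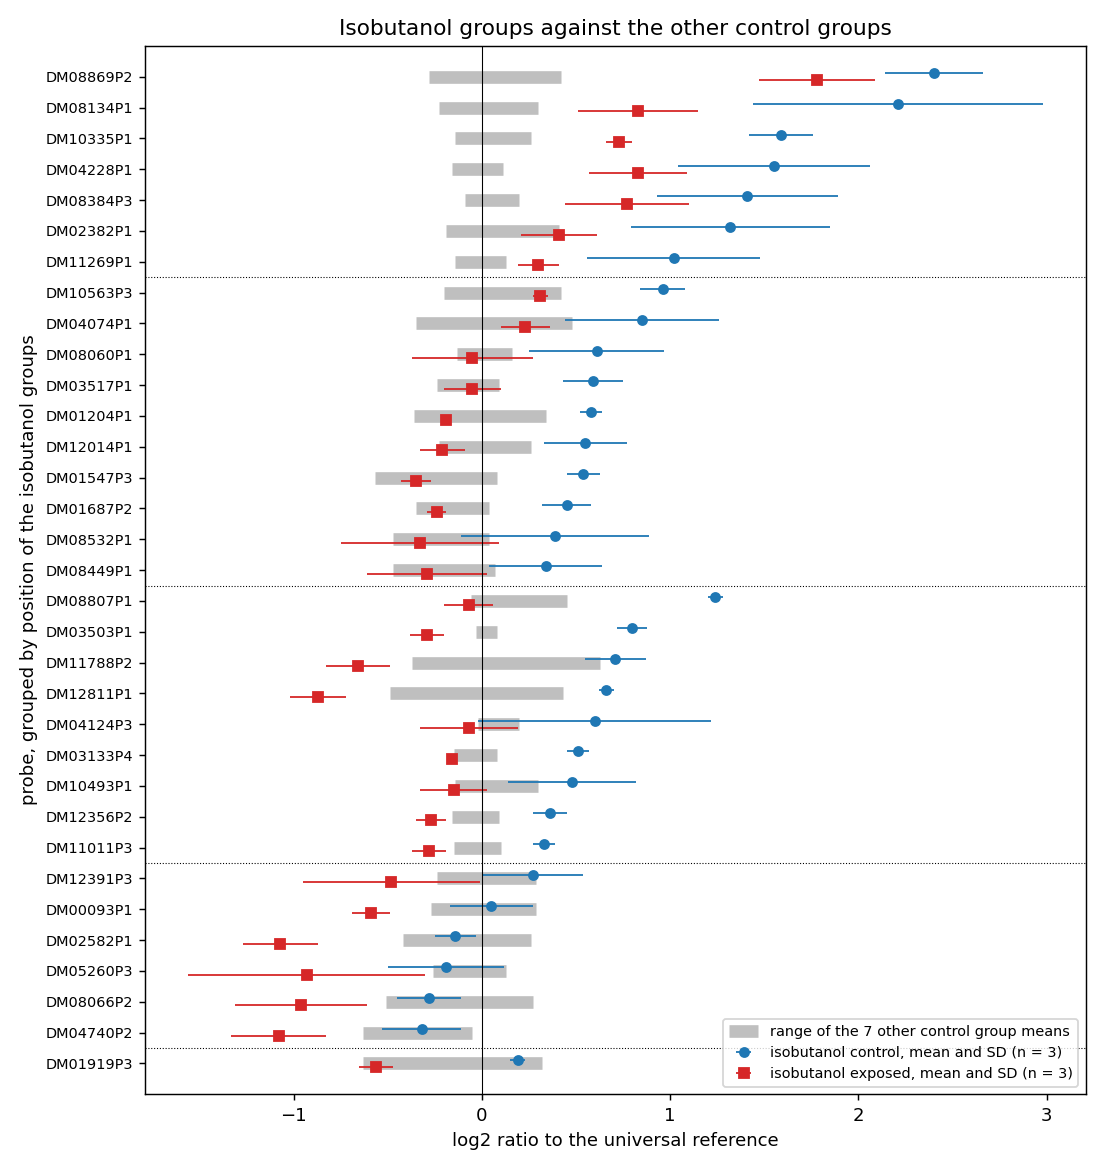
Mean log2 ratio to the universal reference (x axis) of each of the 33 probes (y axis) in the isobutanol control (blue circles) and exposed group (red squares), with bars for the SD over 3 arrays and a grey bar from the lowest to the highest of the 7 other control means. From top to bottom, dotted lines part the 7 probes with both groups above the grey bar, the 10 with the control above, the 9 with the control above and the exposed group below, the 6 with the exposed group below, and the 1 with both inside.

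The array values show the same order. The 3 isobutanol controls all lay above the 3 exposed arrays in 25 of 33 probes (16.5% of all probes), an order that the choice of probes favours. All 3 isobutanol controls lay above all 21 other control arrays in 14 probes (7.26% of all probes) and above all 42 other arrays in 11 (5% of all probes). All 3 exposed arrays lay below all 21 other control arrays in 2 probes, against 4.63% of all probes, and above them in 5, against 6.09%. Over the 16 groups, the isobutanol control was the highest group in 26 probes (18.2% of all probes) and the exposed group the lowest in 9 (8.37%). In 17 probes the exposed group lay within the range of the 14 groups of the other experiments, against 69.2% of all probes.

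Probe DM12811P1 had the largest difference, -1.53. Its isobutanol controls stood at 0.70, 0.67 and 0.62 and the exposed arrays at -0.88, -1.01 and -0.72. The 21 other control arrays ran from -0.66 through a median of -0.05 to 0.79. The isobutanol controls were thus high without leaving the range of single control arrays, while the exposed arrays were below all of them. The highest other control group was 4-chloroaniline at 0.43 ± 0.12 and the lowest was cadmium at -0.49 ± 0.19. The cadmium-exposed group, at -0.66 ± 0.17, came nearest to the isobutanol-exposed mean of -0.87 ± 0.15. Probe DM11788P2 followed the same course. Its controls stood at 0.90, 0.61 and 0.63 and its exposed arrays at -0.67, -0.82 and -0.49, around other control means of -0.37 to 0.63.

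Probes DM08807P1 and DM03503P1 set the control apart. The isobutanol controls of DM08807P1 stood at 1.27, 1.19 and 1.26 and the exposed arrays at -0.01, 0.03 and -0.22. Its 21 other control arrays ran from -0.47 through 0.09 to 0.63. All isobutanol controls were above these arrays, and the exposed mean of -0.07 was just under the lowest other control mean of -0.06, so its place below the range is nominal. In DM03503P1 the controls stood at 0.88, 0.79 and 0.73 and the exposed arrays at -0.33, -0.19 and -0.35. The other control means of DM03503P1 lay close together, from -0.03 to 0.08, and its single control arrays from -0.25 to 0.28. Here the isobutanol group left the narrow control range on both sides, and further on the control side. Its exposed level was not the lowest of the series: animals exposed to 3-chloropropanol stood at -0.32 ± 0.09, and those exposed to 2,3,4-trichloroaniline at -0.29 ± 0.14, beside -0.29 ± 0.09 with isobutanol.

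Among the 10 probes with a high control and the exposed group inside the range, the 3 with the largest differences had exposed levels near the lower end of that range. DM01547P3 had isobutanol controls at 0.57, 0.60 and 0.44 and exposed arrays at -0.31, -0.44 and -0.30, with other control means from -0.57 to 0.08. DM01204P1 had controls at 0.62, 0.62 and 0.52 and exposed arrays at -0.18, -0.19 and -0.18, with other control means from -0.36 to 0.34. In DM01547P3 all isobutanol controls were above the highest other control array at 0.21, while in DM01204P1 the lowest of them was level with the highest other control array at 0.52. DM12014P1 was less even, with controls at 0.41, 0.81 and 0.45, exposed arrays at -0.16, -0.35 and -0.13 and single control arrays elsewhere up to 0.48. In all 3 probes the cadmium control was the lowest of the other controls. The next lowest control mean was -0.28 in DM01547P3 and -0.08 in DM12014P1, above their exposed means of -0.35 and -0.21, and in DM01204P1 it was level with the exposed mean at -0.19.

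In 7 probes the whole isobutanol experiment was high. The isobutanol controls of DM08134P1 stood at 1.38, 2.37 and 2.89 and the exposed arrays at 0.67, 0.63 and 1.20. All 6 of these values were above the 21 other control arrays, which ran from -0.26 to 0.46. DM08869P2 stood at 2.10, 2.55 and 2.55 in controls and at 2.12, 1.69 and 1.53 in exposed animals, so that its groups overlapped, and the 21 other control arrays ran from -0.41 to 0.85. DM10335P1, DM04228P1 and DM08384P3 had control means of 1.59 ± 0.17, 1.55 ± 0.51 and 1.41 ± 0.48 and exposed means of 0.73 ± 0.07, 0.83 ± 0.26 and 0.77 ± 0.33. DM02382P1 and DM11269P1 had lower exposed means of 0.41 ± 0.20 and 0.30 ± 0.11, the former level with the highest other control at 0.41. Across these 7 probes the 42 arrays of the other experiments stayed between -0.45 and 0.85. Isobutanol control replicate 1, labelled in Cy3 while the other two were in Cy5, was the lowest of the 3 controls in 7 of the 7, in 21 of the 33 probes and in 2417 of all 6006.

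In 6 probes the exposed group was low and the control was inside the range. DM02582P1 had controls at -0.16, -0.23 and -0.02 and exposed arrays at -0.89, -1.03 and -1.29, with 21 other control arrays from -1.02 through -0.08 to 0.55. The exposed arrays lay at the lower end of all control arrays, of which a 4-chloroaniline control at -1.02 was the lowest. DM04740P2 had controls at -0.51, -0.35 and -0.09 and exposed arrays at -1.01, -0.87 and -1.36, and DM08066P2 had -0.22, -0.48 and -0.15 against -0.72, -0.81 and -1.36. Their other control arrays reached down to -1.20 and -0.96, so the exposed arrays did not part from single controls elsewhere. The other control means ran from -0.63 to -0.05 in DM04740P2 and from -0.51 to 0.27 in DM08066P2. DM05260P3 had controls at -0.54, 0.06 and -0.07 and exposed arrays at -1.31, -1.28 and -0.21. Its high exposed array was the only one labelled in Cy5.

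**Figure D2:**
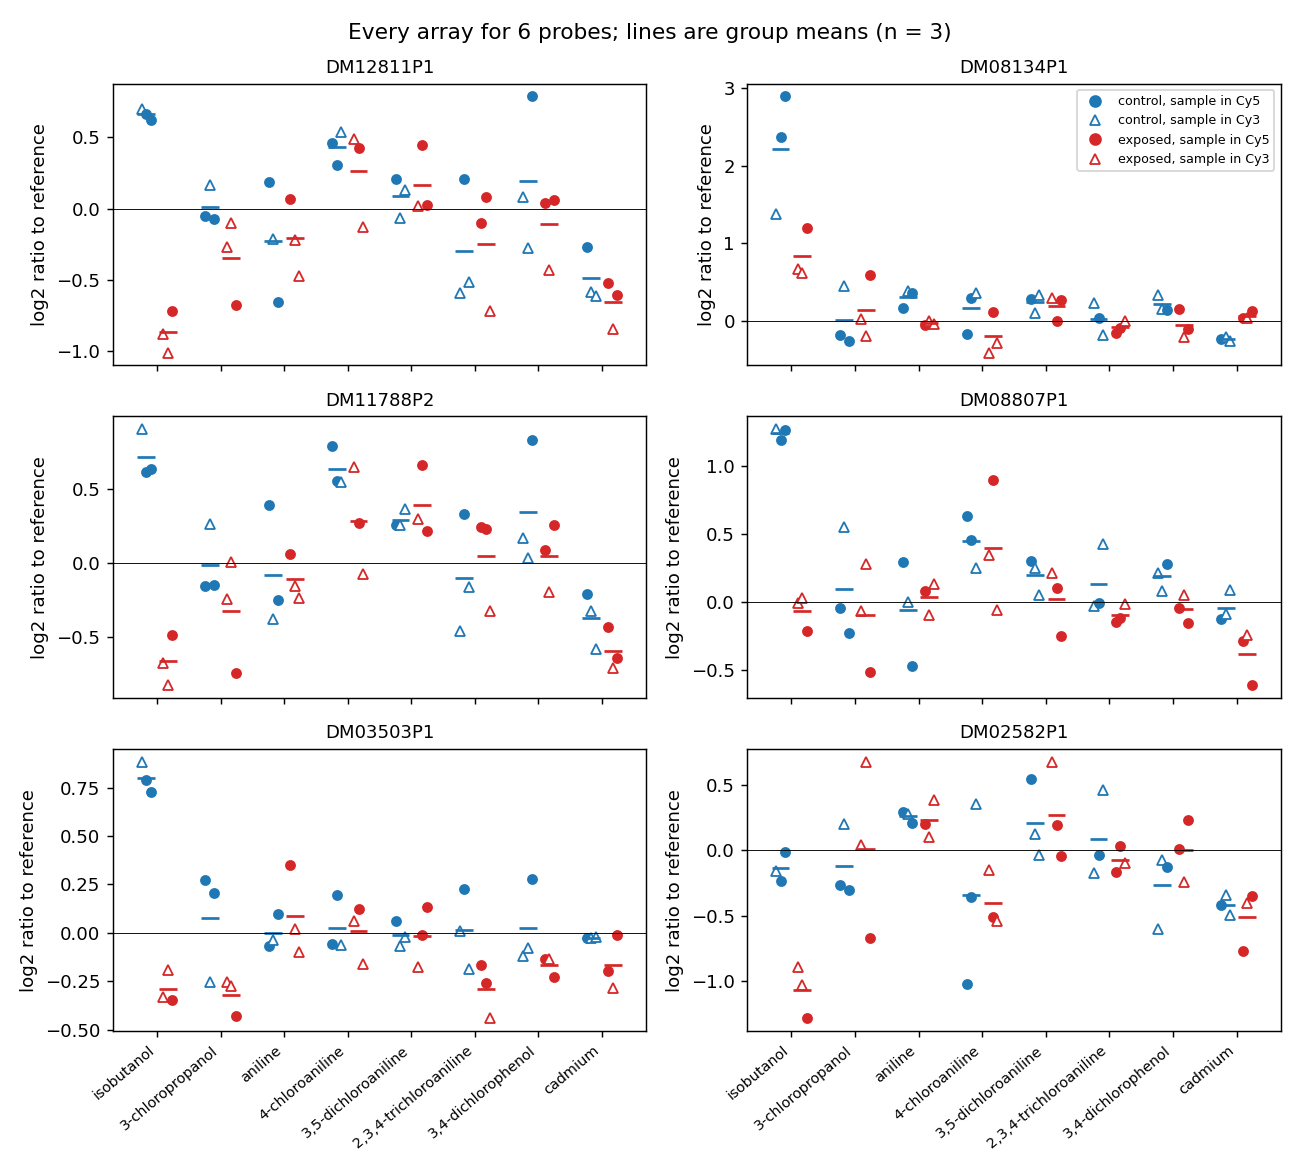
Log2 ratio to the universal reference (y axes) on each of the 48 arrays for 6 probes, by experiment (x axis), with controls in blue and exposed animals in red, filled circles for a sample in Cy5, open triangles for a sample in Cy3, and lines for group means (n = 3). The 3 isobutanol controls lie above all other control arrays in DM08134P1, DM08807P1 and DM03503P1, whereas in DM02582P1 they lie among them and the exposed arrays are low.

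The mean over an experiment's control and exposed arrays does not enter the difference that chose the probes. Both use the same isobutanol arrays, so the mean is free of the choice only if controls and exposed arrays vary alike. Whether they do was not tested. The isobutanol experiment mean was compared with that of the other 7 experiments. It lies above the others when only the control is raised and below them when only the exposed group is lowered. A shift of the whole isobutanol experiment moves this mean as well and cannot be told apart from these. By limma with Benjamini-Hochberg adjustment over all 6006 probes, the isobutanol experiment mean was higher in 21 of the 33 probes and lower in 4. Over all probes the shares were 25.2% higher and 23.2% lower. All 21 higher probes also had the isobutanol control above the other controls. The rule sets each isobutanol control above its own experiment mean, so this overlap was favoured in advance. The median of the 33 differences between experiments was 0.26, against 0.00 over all probes. In 8 probes the test was not passed, with 26 of 33 at an unadjusted p under 0.05. Each chemical was run in a single experiment. Taken with experiments as the unit, 1 against 7 cannot give a one-sided exact p below 0.125, so the limma test speaks of these arrays and not of repeated experiments.

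The highest experiment means belonged to the probes with both groups raised. These probes were grouped by the same isobutanol means that make up the experiment mean. Their high experiment means were thus favoured in advance, and their p-values lend no support to the grouping. DM08869P2 was higher in the isobutanol experiment by 2.08 ± 0.11 (SE; adjusted p = 6.61e-17), with an experiment mean of 2.09 against -0.20 to 0.33 in the other experiments. DM08134P1 was higher by 1.47 ± 0.12 (adjusted p = 1.73e-12), DM04228P1 by 1.19 ± 0.09 (adjusted p = 2e-13), DM10335P1 by 1.16 ± 0.08 (adjusted p = 1.82e-14) and DM08384P3 by 1.08 ± 0.08 (adjusted p = 4.88e-13). In each of these 5 probes the isobutanol experiment lay above the whole range of the others. The SE and p of limma rest on a spread shared by all 16 groups. They can be too small where the isobutanol arrays spread more than the rest. In the order given, the isobutanol control SDs of these probes were 0.26, 0.77, 0.51, 0.17 and 0.48. The 10 probes with a high control and the exposed group inside the range gave smaller values, from 0.11 to 0.59 with a median of 0.29. DM01547P3 was higher by 0.24 ± 0.06 (adjusted p = 0.0014) and DM01204P1 by 0.20 ± 0.06 (adjusted p = 0.00439), and the experiment means of both fell within the range of the other 7. DM08807P1 and DM03503P1, whose exposed means were below the range, were higher by 0.53 ± 0.11 (adjusted p = 7.69e-05) and 0.31 ± 0.06 (adjusted p = 4.34e-05). The call of DM08807P1 ended with quantile normalization (adjusted p = 0.0633).

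The 4 probes called lower were among the 6 with a low exposed group. The exposed mean is part of the experiment mean, so this overlap was favoured in advance. DM02582P1 was at -0.53 ± 0.13 relative to the other experiments (adjusted p = 0.00113), DM08066P2 at -0.53 ± 0.12 (adjusted p = 0.000458), DM05260P3 at -0.44 ± 0.12 (adjusted p = 0.00274) and DM04740P2 at -0.42 ± 0.14 (adjusted p = 0.015). All 4 calls ended with quantile normalization of the arrays, where the adjusted p lay at 0.0513, 0.051, 0.187 and 0.307. For the probes with the largest differences the experiment mean gave no call. DM12811P1 differed by 0.00 (95% confidence interval -0.23 to 0.23, adjusted p = 0.995) and DM11788P2 by -0.01 (-0.23 to 0.22, adjusted p = 0.976), as their isobutanol groups lay on either side of the other experiments.

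**Figure D3:**
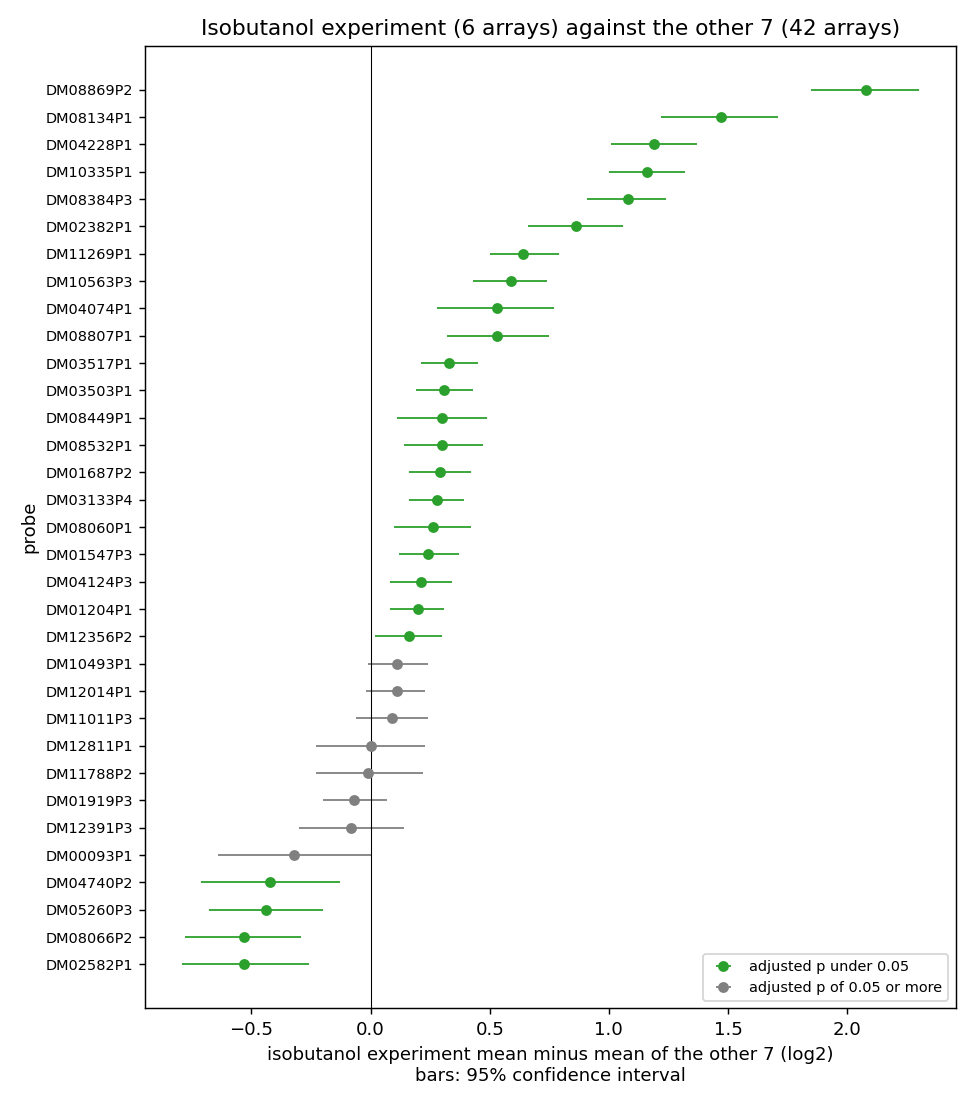
Mean of the isobutanol experiment minus the mean of the other 7 experiments (x axis, log2, with 95% confidence intervals) for each of the 33 probes (y axis), in green where limma's adjusted p was under 0.05. The 21 probes called higher reach from 0.16 in DM12356P2, whose call at an adjusted p of 0.0472 ended in many fits with 1 array less, to 2.08 in DM08869P2, and the 4 called lower from -0.53 to -0.42.

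By an F test over the other experiments at once, variation between them was no more common in these probes than over all probes as deposited. An F test of limma over the other 7 experiment means called 15 of the 33, against 50.3% of all probes. With array weights it called 25 of the 33, against 79.1% of all probes. It called 21 with quantile normalization and 18 with equal spread, for which shares over all probes are not given. Each of these experiments was then compared with the other 6, leaving isobutanol out. The cadmium experiment was lower in 13 probes by limma (9.26% of all probes) and higher in 0 (617 of 6006 probes), with 15 and 0 at an unadjusted p under 0.05. The 4-chloroaniline experiment was higher in 9 (8.79% of all probes) and lower in 0 (7.13%), with 10 and 2 at an unadjusted p under 0.05. Aniline gave 6 higher (13.6% of all probes) and 1 lower (13.7%), with 10 and 2 at an unadjusted p under 0.05. The 3,5-dichloroaniline experiment gave 3 higher (4.3% of all probes) and 0 lower (4.63%), and 3,4-dichlorophenol gave 2 higher (4.8%) and 1 lower (6.56%). By limma 3-chloropropanol gave 1 higher (3.65%) and 0 lower (3.4%), and 2,3,4-trichloroaniline gave 0 in either direction (2.61% higher and 0.35% lower). At an unadjusted p under 0.05, the counts higher and lower were 11 and 0 for 3,5-dichloroaniline, 3 and 2 for 3,4-dichlorophenol, 2 and 2 for 3-chloropropanol, and 1 and 5 for 2,3,4-trichloroaniline. These comparisons share arrays and were chosen after the levels had been seen.

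In some of the 13 probes called lower with cadmium, controls and exposed animals were low alike, and in others they were not. DM12014P1, one of the 13, had a cadmium control mean of -0.23 and an exposed mean of -0.02, and outside the 13 the cadmium control of DM12391P3 was the highest of the other controls at 0.29. In DM01919P3 the cadmium controls stood at -0.63 ± 0.12 and the exposed animals at -0.66 ± 0.20, and the experiment mean differed from the other 6 by -0.61 ± 0.07 (SE; adjusted p = 1.95e-08). The isobutanol-exposed level of this probe, -0.56 ± 0.09, was thus close to that of unexposed animals of the cadmium experiment. In DM01204P1 the cadmium experiment differed by -0.45 ± 0.06 (adjusted p = 3.02e-07) and the 4-chloroaniline experiment by 0.32 ± 0.06 (adjusted p = 0.00024). DM12811P1 had -0.55 ± 0.11 for cadmium (adjusted p = 0.000507) and 0.53 ± 0.11 for 4-chloroaniline (adjusted p = 0.00196), and DM11788P2 had -0.60 ± 0.11 (adjusted p = 0.000159) and 0.49 ± 0.11 (adjusted p = 0.00284). In DM01919P3 the control means outside isobutanol ran from -0.63 to 0.32, a wider gap than its isobutanol difference of -0.75.

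**Figure D4:**
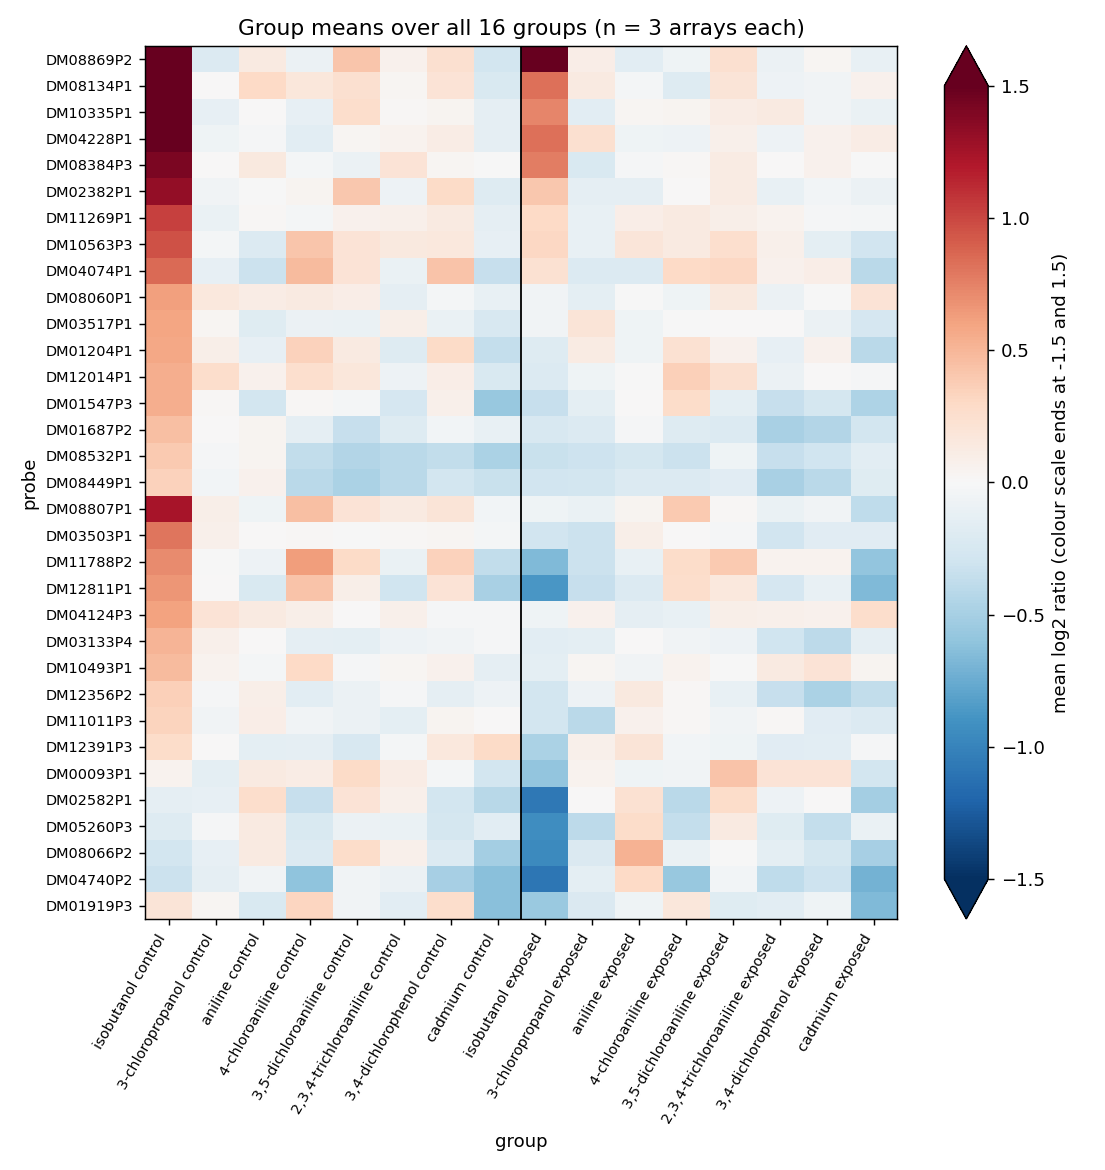
Mean log2 ratio (colour, red above and blue below the reference, with the scale ending at -1.5 and 1.5) of the 33 probes (rows, in the same order as in the plot of positions) in the 8 control groups and, right of the line, the 8 exposed groups (columns, n = 3 arrays each). The isobutanol control is the highest group in 26 rows (in DM08869P2 both isobutanol groups pass the end of the scale), and both cadmium columns are blue in the last row, DM01919P3.

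With the other chemicals the differences were small by the rule, from -0.40 to 0.38. Of the 33 probes, 25 were below 0 with 3-chloropropanol (median -0.10), 24 with 3,4-dichlorophenol (median -0.19) and 23 with 2,3,4-trichloroaniline (median -0.08), where 47.3%, 48.7% and 51.5% of all probes were below 0. With 3,5-dichloroaniline 11 were below 0 (median 0.05), where 51.7% of all probes were. With aniline, 4-chloroaniline and cadmium 16, 17 and 18 were below 0, where 50.1%, 46.3% and 48.5% of all probes were. With isobutanol the differences ran from -1.53 to -0.61 with a median of -0.72. All of these values chose the probes, and nothing is read from the counts.

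The limits of the rule cut through a continuous range. Just inside the isobutanol limit were DM12356P2 at -0.624, DM08869P2 at -0.619 and DM11011P3 at -0.607, and just outside it DM11984P1 at -0.590, DM00591P3 at -0.585 and DM01208P3 at -0.580. Just inside the limit for the other chemicals was DM03503P1, with -0.396 for 3-chloropropanol, and just outside it DM12713P1, with -0.404 for 3,4-dichlorophenol. The set would hold 70 probes with an isobutanol limit of -0.5 and 9 with a limit of -0.8.

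The spread of the arrays bears on the limit. When all arrays were scaled to equal spread, the median isobutanol difference of the 33 probes was -0.50, and 9 of them still reached the limit of -0.6. With quantile normalization the median was -0.47 and 7 reached it. All 33 differences stayed below 0 under both, a sign that the choice of probes favours. The isobutanol control was above the 7 other controls in 25 probes with equal spread and in 23 with quantile normalization, from 26 as deposited. The exposed group was below them in 8 and 7 probes, from 15. Shares over all probes are not given for these settings, so nothing about the 33 probes is read from these counts.

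The dye bears on it as well, since 2 of the 3 isobutanol controls but 1 of the 3 exposed samples were labelled in Cy5. An unadjusted difference is therefore lowered in a probe that reads higher in Cy5. A dye effect was called by limma in 15 of the 33 probes, against 35.2% of all probes, and was higher in Cy5 in 11 of them (16.5% of all probes) and lower in 4 (18.7%). The rule favours a higher Cy5 reading, so nothing is read from this split. With the dye fitted, 25 of the 33 probes still met the rule. Within Cy3 (2 exposed arrays, 1 control) the median difference was -0.54, and within Cy5 (1 exposed array, 2 controls) it was -0.82. All 33 probes were below 0 in each. The arrays are those that chose the probes, so this sign was favoured in advance and nothing is read from it. DM05260P3 had the largest dye effect, 0.99 ± 0.08 (SE; adjusted p = 9.4e-11), and its isobutanol difference moved from -0.75 to -0.42 ± 0.23 with the dye fitted. DM04124P3, DM08060P1 and DM08532P1 had dye effects of 0.59, 0.57 and 0.50, and their differences moved from -0.67, -0.66 and -0.71 to -0.47, -0.47 and -0.55. In DM04124P3 the Cy3 control stood at -0.10, inside the exposed range of -0.23 to 0.23, while the Cy5 controls stood at 1.06 and 0.84.

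Deviations of single arrays from their group means, which the rule did not use, showed little likeness within the set as a whole. After the dye was fitted, the median correlation over 48 arrays was 0.06 among the 528 pairs of the 33 probes and 0.00 among all pairs of the table, with middle ranges of -0.15 to 0.29 and -0.19 to 0.19. The 7 probes with both isobutanol groups raised were more alike, with a median of 0.49 and a range of 0.29 to 0.81 over their 21 pairs. On the 42 arrays outside the isobutanol experiment their median was 0.28, from -0.02 to 0.79. There the median was 0.06 among all pairs of the 33 probes and 0.00 among all pairs of the table. The closest pairs of the set were DM08532P1 with DM08449P1 at 0.89 and DM12811P1 with DM11788P2 at 0.88. These correlations share arrays and their normalization, and the 7 probes were grouped after their levels had been seen, so they are descriptions with no test.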

How the data were processed

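The deposited values are log2 ratios of sample and universal reference on 2-colour Agilent arrays, normalized by the authors; the log base was inferred from the values, and how the background was corrected and the arrays normalized is not stated by the labels. Per the labels' protocols, labelling started from 100 ng of RNA. All 48 columns were mapped by accession, and 27 control rows were left out. Ratios hold no brightness, so depth and background cannot be judged, and the number of arrays limits the precision. Over 32 within-group pairs of opposite dye the median r was 0.44, so the table was used as deposited, with swapped arrays already turned.

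Members were chosen from unadjusted group means. The fit was limma 3.58.1 in R 4.3.3 with 16 group means and a dye covariate (31 residual and 3.65 prior degrees of freedom), Benjamini-Hochberg adjustment over 6006 probes and a threshold of 0.05, two-sided. It was run on simulated data with a single spread per probe over all arrays and no differences among the other experiments. That run cannot show how the tests behave with the wider isobutanol arrays. Figures used matplotlib 3.10.9 in Python 3.11.15. The members, lists and tests were chosen with earlier results of these data known. Named were the 12 largest differences, the probes nearest the isobutanol limit, the extremes of the experiment mean and the 5 largest dye effects; DM01919P3, DM11269P1, DM08449P1, DM12391P3 and DM12713P1 were added after their values were seen, as was the split of probes with both groups raised. Gene lists could not be used without names. Alternatives were normalization, dye, weights, replicate block, rule limits, and arrays left out.

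Same-numbered control and exposed arrays of a chemical did not deviate together (r of -0.3 to 0.3), so the numbers were not taken as pairs.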

Additional observations from a re-analysis of the deposited data

How the results depend on the processing

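The count of probes that met the rule depended most on the processing. It was 33 as reported, 7 with arrays scaled to equal spread (5 of them among the 33) and 4 with quantile normalization (2 among the 33). With other limits it was 70 at -0.5 and 9 at -0.8 for isobutanol, and 11 at 0.3 and 69 at 0.5 for the other chemicals. Group medians gave 32 probes, 17 of them shared, and the fitted dye gave 41, 25 shared. Leaving out 1 array gave 24 to 50, the latter without isobutanol control replicate 1. The control was above the other controls in 25 to 27 of the 33 probes when 1 array was left out, and the exposed group below them in 13 to 16, or in 8 with equal spread and 7 with quantile normalization. The isobutanol experiment mean was higher in 17 to 23 probes under the other settings and in 19 to 21 with 1 array left out. It was lower in 2 with equal spread, in 0 by limma with quantile normalization (2 at an unadjusted p under 0.05), and in 3 to 5 with 1 array left out. Of the 25 probes called there, 16 were called under all 7 other settings and all 48 fits without 1 array. The call of DM12356P2 was the least secure, with an adjusted p of 0.0472 as reported and 0.0506 with the replicate block. The F test among the other experiments called 14 to 18 with 1 array left out and 25 with array weights. It called 21 with quantile normalization and 18 with equal spread. The dye effect was called in 13 to 16 with 1 array left out. Cadmium was called lower in 10 to 17 probes and 4-chloroaniline higher in 7 to 10. Apart from the F test with array weights (79.1% of all probes), shares over all probes are not given for the settings of this section. Whether a shift belongs to these probes or to the whole table therefore cannot be read from the counts. The cause of these shifts was not tested.

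Values near 0 changed sign. With quantile normalization DM01919P3 was at 0.01298, DM11788P2 at 0.000792 and DM12811P1 at 0.07038 in the experiment mean. With 1 array left out, DM11788P2 ran from -0.08285 to 0.03497, DM12391P3 from -0.1743 to 0.03133 and DM12811P1 from -0.05246 to 0.02845, none of them called. With replicate numbers as a block, the experiment mean was higher in 20 probes and lower in 4, the F test and the dye effect called 15 each, and 39 probes met the rule in the blocked fit with the dye. Counting the similar 3-chloropropanol controls as 1 sample gave 21 higher and 4 lower. The wide ratios of the isobutanol arrays limit what the fixed limit of the rule means.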
